A study of Mus musculus with 18 samples.

Results

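RNA bound to tagged ribosomes was compared with whole-tissue RNA from glioma-bearing mouse cortex treated with AZD8055. This drug inhibits the kinase mTOR by competing with ATP. The comparison used the 3 immunoprecipitated (IP) libraries and the 3 input libraries of treated tumor-bearing mice, 6 of the 18 libraries in the study, paired by replicate number and covering all genes. The other 12 libraries are the IP and input of control mice without a tumor and of mice with an untreated tumor, 3 of each. All mice in the 3 conditions carried the genotype Camk2a-Cre-Rpl22HA, and the tumors came from glioma cells implanted in the cortex. Each label gives brain as the tissue. Dose, duration of treatment, age and strain could not be taken from the labels, nor whether replicates with different numbers came from separate animals. The p-values therefore measure the spread of the ratio of IP to input between these pairs, not necessarily between animals.

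Rpl22HA is an epitope-tagged protein of the large ribosomal subunit. Where Cre recombinase is active the tagged protein is built into ribosomes, and an antibody against the tag then recovers those ribosomes with the messenger RNAs they are translating. The Camk2a promoter that drives Cre is used mainly in excitatory neurons of the forebrain, so the tag marks the cells in which this promoter was active rather than a class defined by other genes. mTOR, the target of the drug, is a kinase whose complex 1 promotes translation, most strongly of messages for ribosomal proteins and elongation factors that begin with a run of pyrimidines.

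The input libraries held 14735054 to 19742504 counts in genes and the IP libraries 13561511 to 31052149, with IP 1 the shallowest. Both fractions of the treated mice belong to 1 library set, whereas the control and tumor inputs belong to a second set and the control and tumor IPs to another. The second set stands apart in some genes: Cdr1, for example, was at no more than 0.0638 CPM in the control and tumor inputs and at 20.4 to 137 CPM in the other 12 libraries. Comparisons within the treated mice do not use that set. Of 23420 gene symbols, 15507 had enough counts to be tested with edgeR's quasi-likelihood test, with the replicate number as a block. Levels are CPM (counts scaled to the size of each library) after TMM scaling, an adjustment for composition, and are not divided by transcript length, so they are compared between libraries and not between genes. A gene was called at an adjusted p under 0.05.

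At this threshold 5192 genes (33.5%) were higher in IP and 5437 (35.1%) were lower, and 4688 and 4989 of these had no overlap between the 3 input and 3 IP values. The ratio of IP to input was alike in the 3 pairs: across 15507 genes, which are not independent replicates, Pearson's r between pairs was 0.92, 0.89 and 0.92. Falls were larger than rises: the log2 fold was -2.30 at the 5th percentile and 1.01 at the 95th, and -2.95 at the 1st and 1.39 at the 99th. Scaling by library totals alone moved the median log2 fold by -0.30 and the counts to 2807 higher and 7449 lower, so all changes below are relative to the TMM scale. List counts given on library totals are read against 2807 and 7449 of 15507 genes. All other list counts in this comparison are read against 33.5% higher and 35.1% lower of all genes.

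Genes of excitatory neurons rose together in the IP. Those of glia, tumor lineage and vessels and general markers of inhibitory neurons fell together, while lists of interneuron subtypes were mixed. Of 26 excitatory neuron markers 25 were higher and 0 lower, with a median log2 fold of 1.37, against -0.02 over all genes tested. Camk2a, the kinase subunit whose promoter drives Cre, was at 418, 764 and 652 CPM in inputs 1, 2 and 3 and at 987, 1983 and 2035 CPM in the matching IPs. Every IP lay above every input, with pair 1 low in both fractions, and the log2 fold was 1.42 ± 0.12 (SE, n = 3 pairs, adjusted p = 4.18e-09). Slc17a7, the vesicular glutamate transporter of cortical excitatory neurons, rose from 486, 509 and 506 CPM to 1528, 1283 and 1142 CPM, a 2.62-fold increase. The transcription factors Neurod2, Tbr1 and Neurod6, which direct the development of cortical projection neurons, had log2 folds of 1.60, 1.55 and 1.46. Their input and IP values did not overlap.

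The pan-neuronal genes Rbfox3 and Thy1, a nuclear splicing factor and a surface glycoprotein, rose by 1.33 and 1.30 on the log2 scale. Arpp21, a phosphoprotein of cortical and striatal neurons, was the exception in the list at 0.21 ± 0.10 (adjusted p = 0.0781), though called without pair 3 (adjusted p = 0.0153). The summed level of the list was 5651 to 7518 CPM in the inputs and 15307 to 17056 CPM in the IPs, 212% to 271% of the matching input. Pair 1 had the largest ratio and pair 3 the smallest.

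**Figure D1:**
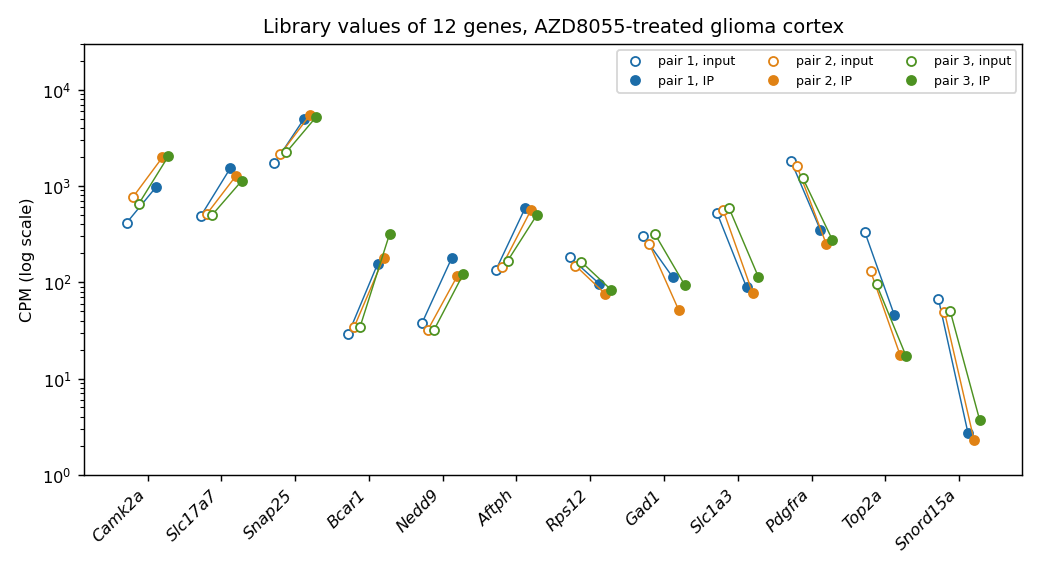
CPM on a log scale of 12 genes in each library; open circles are inputs, filled circles are IPs, colors and lines mark the 3 pairs. Camk2a, Slc17a7, Snap25, Bcar1, Nedd9 and Aftph were higher in all 3 IPs than in all 3 inputs, and Rps12, Gad1, Slc1a3, Pdgfra, Top2a and Snord15a were lower in all 3.

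Bcar1, Nedd9 and Aftph were among those with the highest IP-over-input ratios. Bcar1 and Nedd9 encode related docking proteins of the Cas family, which carry signals from integrins. Bcar1 was at 28.9, 34.2 and 34.4 CPM in the inputs and 156, 178 and 317 CPM in the IPs, a 6.39-fold difference (log2 2.68 ± 0.13, adjusted p = 3.79e-12), with IP 3 well above the other IPs. Nedd9 went from 37.7, 32.1 and 31.7 CPM to 177, 117 and 122 CPM (4.04-fold, adjusted p = 4.35e-12), and here the first IP was the high one. Aftph, an accessory protein of clathrin-coated vesicles, was at 134, 146 and 167 CPM and 597, 569.8 and 506 CPM, with a log2 fold of 1.91 ± 0.11. All 3 genes stayed above the input range in each IP.

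Others of the 12 highest, among genes that averaged 10 CPM or more and did not overlap between fractions, had log2 folds from 1.67 to 1.94. They were C1qtnf4, a secreted C1q-like protein; Tnnc1, troponin C of slow muscle and heart; Cck, the neuropeptide cholecystokinin; Cpne9, a copine; Rtn4r, the Nogo receptor; Rspo2, an activator of Wnt signaling; Rprml; and Sh3gl2, endophilin A1. Cck and Rtn4r are also in the excitatory neuron list and Sh3gl2 in the synaptic vesicle list. Cck rose from 92.4, 74.3 and 109 CPM to 376, 322 and 274 CPM, and it is also made by a class of interneurons. Other adaptor and adhesion genes did not move as a block: of 24 focal adhesion and docking genes tested, 8 were higher and 12 lower. Of all genes 33.5% were higher and 35.1% lower. Ptk2b, the neuronal relative of focal adhesion kinase, rose by 1.21 on the log2 scale, and paxillin, Pxn, had a log2 fold of -2.37.

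**Figure D2:**
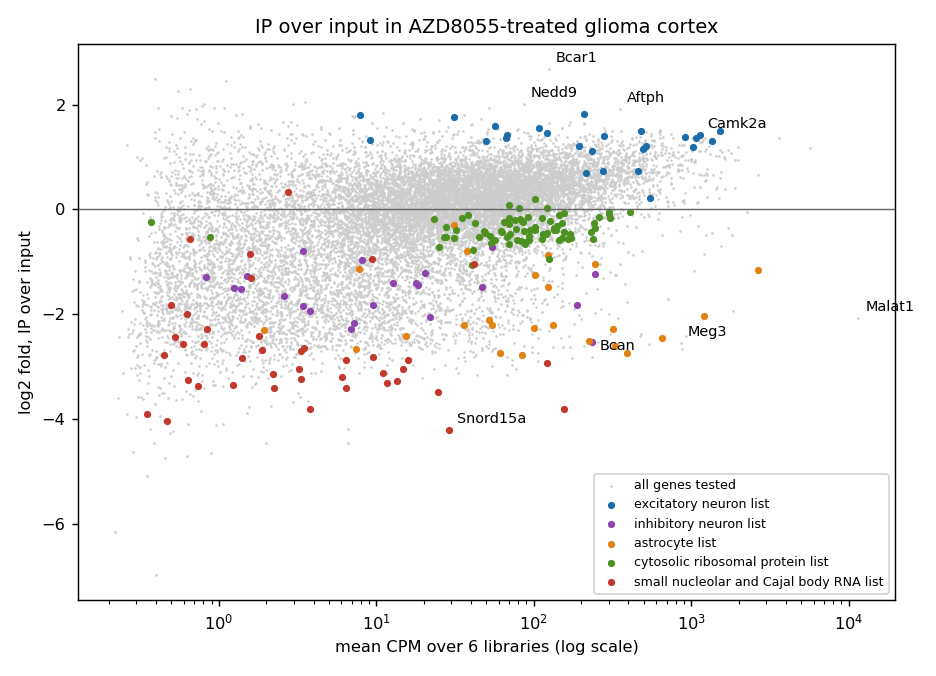
Log2 fold of IP over input against mean CPM over 6 libraries on a log scale, for all genes tested (grey) and 5 gene lists (colors). Excitatory neuron genes lie above 0, cytosolic ribosomal protein genes mostly just below it, and inhibitory neuron, astrocyte and small nucleolar RNA genes far below it.

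Markers of cortical layers were mixed, and the difference between layers was not tested. Of 12 genes of layers 2 and 3, 8 were higher and 2 lower (median log2 fold 0.79), and of 8 genes of layer 4, 3 were higher and 0 lower (0.68), against 33.5% higher and 35.1% lower of all genes. Calb1, a calcium buffer, went from 82.2, 104 and 112 CPM to 214, 227 and 229 CPM, and the homeobox gene Cux2 from 43.3, 57.3 and 55.8 CPM to 85.9, 103 and 105 CPM. Lamp5 had a log2 fold of 1.46 ± 0.13, but its values ran from 25.6, 60.4 and 51.9 CPM in input to 48.6, 173 and 190.1 CPM in IP, so the first IP overlapped the inputs. Cux1, the close relative of Cux2, was not called (0.05 ± 0.10, adjusted p = 0.64), and on library totals it was called lower (-0.25, adjusted p = 0.039). Pou3f3, also a factor of progenitors and glia, went the other way at -0.80 ± 0.10. In layer 4, Rorb, Plcxd2 and Kcnh5 rose by 0.83, 1.08 and 0.96 on the log2 scale.

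For layer 5, 7 of 15 genes were higher and 4 lower, against 33.5% and 35.1% of all genes, and on library totals 6 and 6. Fezf2 and Bcl11b, which specify subcerebral projection neurons, rose by 0.69 and 0.51 on the log2 scale, less than the general excitatory markers, and Fezf2 was no longer called on library totals (adjusted p = 0.0678). Deptor, an inhibitory partner of mTOR that marks layer 5, went from 12.1, 13 and 15.2 CPM to 35.3, 30.5 and 27.6 CPM (log2 1.21 ± 0.13). Crym rose by 0.84 on the log2 scale. Sulf2, a heparan sulfatase also made by glia, fell from 318, 284 and 228 CPM to 143, 125 and 118 CPM. For layer 6, 4 of 12 genes were higher and 2 lower, a share higher near that of all genes, and on library totals 4 and 5. The median was 0.17, or -0.14 on library totals. Crtac1 and Nr4a2 rose by 1.19 and 1.13 on the log2 scale, Ctgf and Tle4 had log2 folds of -0.96 and -0.35, and Foxp2 overlapped between fractions (-0.25 ± 0.11, adjusted p = 0.0636), but was called lower without pair 1 (adjusted p = 0.00463).

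The general list of inhibitory neuron genes was depleted throughout. All 22 tested members of that list were lower, with a median log2 fold of -1.49 and no overlap in any. Gad1, which makes GABA, was at 304, 251 and 314 CPM in the inputs and 112, 51.2 and 93.9 CPM in the IPs (log2 -1.82 ± 0.12, adjusted p = 2.69e-10). Its paralog Gad2 was at 409, 262 and 327 CPM and 249, 78.7 and 139 CPM, and the first IP kept the most of both. Slc32a1, the vesicular GABA transporter, had a log2 fold of -1.41 ± 0.16. Erbb4, the neuregulin receptor, was 2.78-fold lower. The summed level of the list was 1257 to 1435 CPM in the inputs and 306 to 566 CPM in the IPs, so 24.4% to 39.4% of the input level remained.

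Lists of interneuron subtypes were less uniform. Of 12 genes of the Pvalb and Sst classes 2 were higher and 9 lower (median -1.22), and of 12 of the Vip and Lamp5 classes 3 were higher and 8 lower (median -1.50). The shares of all genes were 33.5% higher and 35.1% lower. Sst, the peptide of a dendrite-targeting interneuron class, went from 49.3, 26.2 and 48.8 CPM to 8.69, 6.32 and 10.8 CPM (4.71-fold lower). Pvalb, the calcium buffer of fast-spiking cells, was 3.88-fold lower, Vip 5.74-fold and the serotonin receptor subunit Htr3a 4.81-fold. Npy was called (-1.83 ± 0.18) although its IP 1 value of 24.8 CPM lay within the input range of 20.3 to 53.1 CPM. Nos1 and Pde1a, listed with interneurons, rose by 0.73 and 1.13 on the log2 scale. The summed level of the Pvalb and Sst list was 71.7% to 83.3% of input. That of the Vip and Lamp5 list was 119.5% to 210.2% of input, with Pde1a at 341, 289 and 323 CPM in the inputs and 934, 651 and 551 CPM in the IPs and Cnr1 at 282, 229 and 288 CPM and 568, 307 and 296 CPM, most of the sum. Ndnf, of superficial interneurons, and the cannabinoid receptor Cnr1 were called higher by small margins (0.38 ± 0.13 and 0.49 ± 0.13). Ndnf was not called without pair 1 or without pair 2 (adjusted p = 0.125 in both), nor Cnr1 without pair 1 (adjusted p = 0.0732) or with DESeq2 (adjusted p = 0.107).

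Striatal projection neurons are cells in which the Camk2a promoter can also be active. Of 14 genes typical of them 2 were higher and 7 lower, against 33.5% and 35.1% of all genes. Drd2 and Adora2a, receptors of indirect-pathway neurons, had log2 folds of -1.38 and -0.99, and Foxp1 of 0.61. Penk overlapped between fractions (-0.17, adjusted p = 0.153) and was called lower without pair 1 (adjusted p = 0.0128). Ppp1r1b (DARPP-32), the dopamine-regulated phosphatase inhibitor, was called higher (0.33 ± 0.11) but not without pair 1 (adjusted p = 0.295). The summed striatal level was 84.6% to 119% of input, above 100% in pair 1 only. Among 12 thalamic and hippocampal genes 2 were higher and 7 lower, against the same shares of all genes, with a median log2 fold of -1.55. Slc17a6, the second vesicular glutamate transporter, went from 22.9, 15.3 and 22.2 CPM to 39.7, 33.6 and 43.1 CPM, and Rora rose by 0.58 on the log2 scale. The dentate gyrus factor Prox1 and the thalamic factor Tcf7l2 had log2 folds of -2.16 and -1.79. Prox1 is also in the inhibitory neuron list, whose tested members were all lower.

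Astrocyte genes were lower in all 24 cases, with a median log2 fold of -2.21. Slc1a3, the glial glutamate transporter GLAST, was at 522, 567 and 594 CPM in the inputs and 88.3, 77.7 and 113 CPM in the IPs, a 6.09-fold difference (log2 -2.61 ± 0.11, adjusted p = 1.14e-12). Apoe, the lipid carrier, was 6.66-fold lower and Acsbg1, an acyl-CoA synthetase, 6.83-fold lower. Gfap, an intermediate filament protein of reactive astrocytes, was at 617, 289 and 235 CPM and 109, 42.7 and 49.1 CPM, with pair 1 high in both fractions. Slc1a2, the transporter GLT-1, fell by a smaller amount, from 2966, 3781 and 4207 CPM to 1398, 1595 and 1932 CPM (2.22-fold). The astrocyte list summed to 9319 to 11695 CPM in the inputs and 2988 to 3875 CPM in the IPs, 27.8% to 33.1% of input.

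Genes shared by the glioma cells and oligodendrocyte precursors were lower in all 24 cases, with a median of -2.15. Pdgfra, the growth factor receptor that marks precursors and many gliomas, went from 1831, 1624 and 1214 CPM to 349, 248 and 278 CPM (5.32-fold lower, adjusted p = 7.68e-12). The lineage factors Olig1, Olig2 and Sox10 were 4.61-fold, 5.2-fold and 6.27-fold lower. The proteoglycans Cspg4 (NG2) and Bcan (brevican) were 5.75-fold and 7.08-fold lower. In bulk tissue, fewer cells of a type and less RNA per cell cannot be told apart, and the same holds for what of these RNAs remained in the IP.

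Genes of dividing cells showed the same pattern with a wide spread between inputs. Top2a, the topoisomerase of replicating cells, was at 335, 130.3 and 95.4 CPM in the inputs and 45.9, 17.5 and 17.1 CPM in the IPs, so input 1 was far above the others and IP 1 lay below every input. Mki67 was 3.25-fold lower and the mitotic cyclin Ccnb1 5.95-fold lower. Of 30 proliferation genes 29 were lower, and Pcna, the replication clamp, was not called (-0.22 ± 0.10, adjusted p = 0.0589) except without pair 3 (adjusted p = 0.0313). The list summed to 632 to 1723 CPM in the inputs and 219.8 to 468 CPM in the IPs, 27.1% to 34.8% of the matching input.

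Oligodendrocyte genes were lower in 23 of 24 cases. Mag, a myelin glycoprotein, went from 65.1, 63.7 and 74.7 CPM to 9.27, 8.41 and 13.9 CPM (6.51-fold lower), and Mal, another myelin protein, was 4.93-fold lower. Mbp, whose message is carried out to the myelin sheath, fell less, by 2.66-fold. Enpp2, autotaxin, was the uncalled member at 249, 395 and 398 CPM and 213, 419 and 359 CPM (adjusted p = 0.394).

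Microglial genes were lower in 27 of 27 cases (median -2.43). The complement genes C1qa, C1qb and C1qc were 5.66-fold, 5.52-fold and 6-fold lower, and the protease gene Ctss 6.23-fold. Of 26 endothelial and pericyte genes 25 were lower (median -2.47). Cldn5, the tight junction protein of brain endothelium, went from 33.9, 19.6 and 19.8 CPM to 7.38, 2.73 and 4.54 CPM, and the barrier transporters Abcb1a and Slco1a4 were 8.23-fold and 6.84-fold lower. Egfl7 was the uncalled vascular member (0.09 ± 0.13, adjusted p = 0.558).

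All 14 genes of vascular and leptomeningeal fibroblasts were lower, among them Dcn and Col1a2 (5.89-fold and 6.37-fold). Of 33 interferon and MHC genes 29 were lower and 0 higher, with H2-K1 at 61.1, 40.1 and 28.3 CPM and 11, 4.48 and 5.56 CPM. Of 39 matrix genes 35 were lower. Col6a1 and Sparc were 7.98-fold and 6.16-fold lower, and the 3 that were higher, Spock1, Spock2 and Timp2, had log2 folds of 1.34, 0.58 and 0.56. Timp2 was no longer called on library totals (adjusted p = 0.0525). In the IPs the summed level was 16.8% to 25.4% of input for microglia, 17.6% to 23.5% for endothelium and pericytes and 30.6% to 34.9% for oligodendrocytes.

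**Figure D3:**
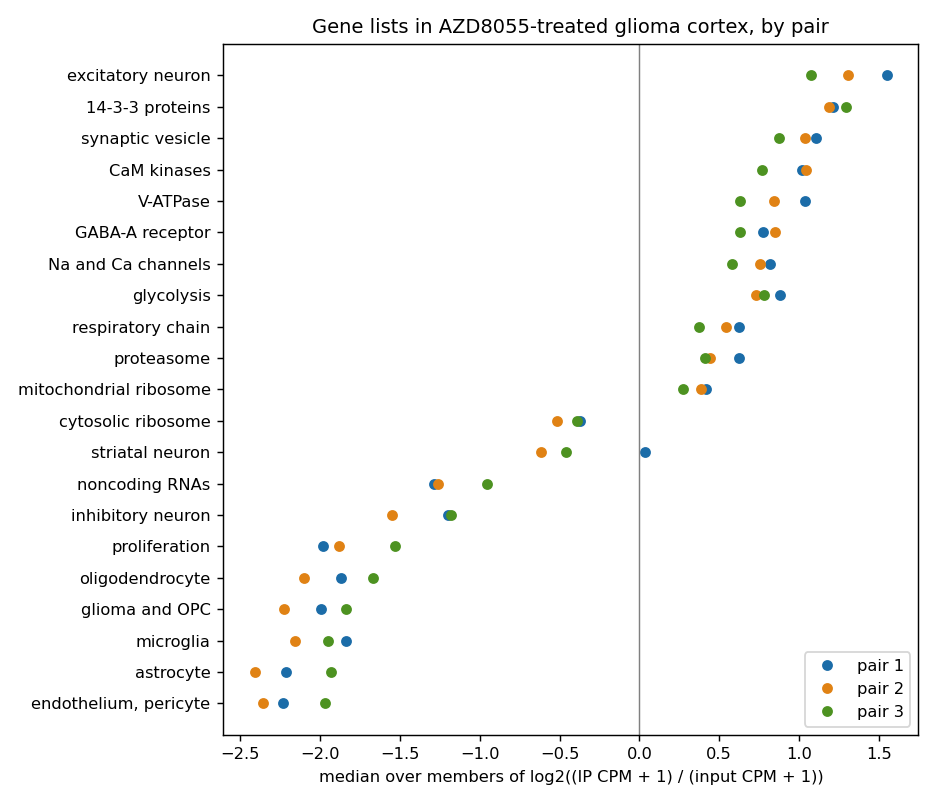
Median over list members of the log2 ratio of IP to input CPM, each plus 1 CPM, in each of the 3 pairs, on the scaling of all 18 libraries. Excitatory neuron medians are 1.55, 1.31 and 1.08, astrocyte medians -2.22, -2.41 and -1.93, and of the 21 lists drawn only the striatal list has pairs on both sides of 0.

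Genes of the presynaptic terminal were among the groups with most members higher. Of 42 synaptic vesicle genes 38 were higher and 2 lower, with a median of 1.08. Snap25, a SNARE protein of vesicle fusion, was at 1721, 2142 and 2242 CPM in the inputs and 4994, 5481 and 5179 CPM in the IPs (log2 1.37 ± 0.14). Its partners Stx1a and Vamp2 rose 3.12-fold and 2.82-fold, and Syn1, which tethers vesicles to actin, 2.96-fold. Rab3b, a GTPase enriched in some interneurons, and Pclo, a very long active-zone scaffold, were the lower members (-0.87 ± 0.12 and -0.35 ± 0.09). Pclo overlapped between fractions and was not called without pair 2 (adjusted p = 0.0849). Bsn, the scaffold related to Pclo, was not called (0.03 ± 0.09, adjusted p = 0.796), and on library totals it was called lower (-0.28, adjusted p = 0.0121).

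Receptor genes divided by subunit. Of 22 AMPA, NMDA, kainate and metabotropic glutamate receptor genes 13 were higher and 4 lower, against 33.5% and 35.1% of all genes. On library totals the counts were 9 and 7, against 2807 and 7449 of all 15507 genes. The NMDA subunits Grin1, Grin2a and Grin2b, the main forebrain subunits, rose 1.89-fold, 2.31-fold and 2.34-fold. Grin2c, whose message is found in glia and in cerebellum, went from 17.4, 26.9 and 31.1 CPM to 4.43, 6.09 and 7.74 CPM (4.13-fold lower). The presynaptic receptor Grm2 rose by 1.35 on the log2 scale, its glial and neuronal relative Grm3 was not called (0.19 ± 0.10, adjusted p = 0.091, or 0.00401 without pair 3), and Gria4 and Grik1, used heavily by interneurons, had log2 folds of -0.59 and -1.37. Among 32 postsynaptic scaffold genes 24 were higher and 2 lower. Dlg3 (SAP102) and Homer1 rose 2.93-fold and 2.07-fold, and Homer3 was lower (-1.75 ± 0.29) at 0.747 to 4.87 CPM.

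Of 15 GABA-A receptor genes 12 were higher and 2 lower. Among the lower ones, Gabrg1, a subunit with glial expression, went from 75.8, 60.5 and 70.6 CPM to 51.5, 43.8 and 39.1 CPM. Gabre was lower from a level under 1 CPM and was not called with DESeq2 (adjusted p = 0.0507). Of 17 GABA-B receptor and chloride transport genes 8 were higher and 6 lower, against 33.5% and 35.1% of all genes. On library totals the counts became 4 and 7, against 2807 and 7449 of all 15507 genes. The receptor subunit Gabbr2 rose 2.23-fold. Slc12a5 (KCC2), the chloride exporter of mature neurons, was at 224, 356 and 360.3 CPM and 436, 709.7 and 643 CPM, whereas the importer Slc12a2 (NKCC1) was at 192, 238 and 197 CPM and 68.6, 73.3 and 86.5 CPM. The exporter Slc12a4 (KCC1), found outside neurons, was 4.78-fold lower.

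Of 23 sodium and calcium channel genes 19 were higher and 2 lower, with the auxiliary subunit Cacnb4 up 2.46-fold and Cacna2d2 down (-0.72 ± 0.15). Of 43 potassium and HCN channel genes 34 were higher and 3 lower. Kcnh7, Kcnq3 and Kcnj9, a subunit of G-protein-gated channels, rose 2.69-fold, 2.2-fold and 2.15-fold. Kcnc2, a fast potassium channel of interneurons, was called higher (0.29 ± 0.09) but not without pair 2 (adjusted p = 0.175), and on library totals its fold was -0.02. Kcnj10 and Kcnj16, which form the potassium channel of astrocytes, went from 121, 84.7 and 65.7 CPM to 41.6, 25.7 and 37.9 CPM and from 68.6, 62.8 and 51.5 CPM to 14, 10.9 and 12.5 CPM. All 13 genes of calcium/calmodulin kinases and their inhibitors were higher. Camk2b, Camk2d and Camk2g, the other subunits of the kinase, rose 1.75-fold, 2.01-fold and 2.04-fold, the upstream kinase Camkk1 2.6-fold and Camk4 2.3-fold.

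**Figure D4:**
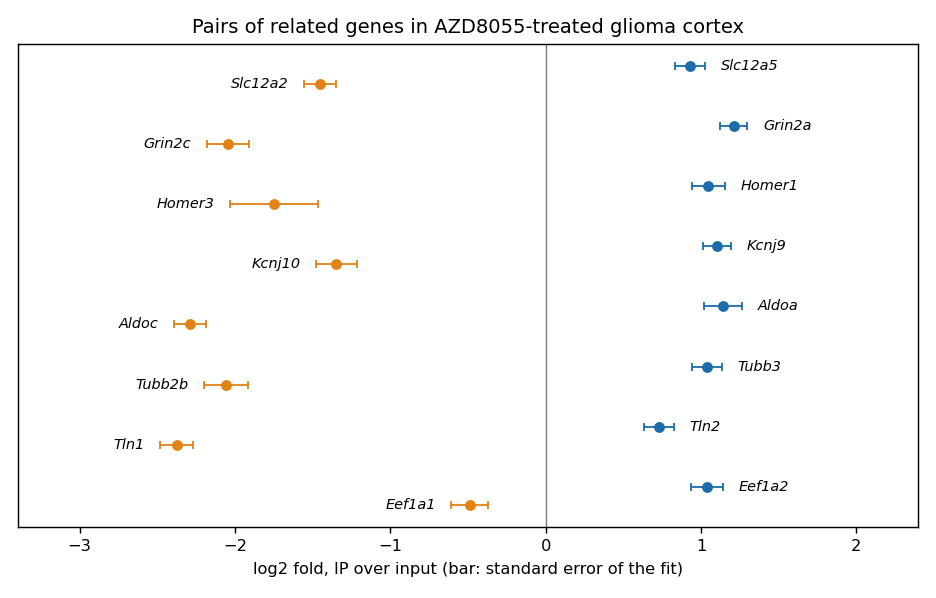
Log2 fold of IP over input, with the standard error of the fit, for 8 pairs of related genes; the member higher in IP is blue and the member lower in IP orange. The error bars of the 2 members overlap in no pair, from Slc12a5 and Slc12a2 at the top to Eef1a2 and Eef1a1 at the bottom.

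Cytoskeletal genes were split between related members in the same way. Tubb3, the neuronal beta-tubulin, went from 174, 176 and 168 CPM to 388, 359.8 and 321 CPM, and Tubb2b from 116, 78.4 and 59.6 CPM to 40.7, 13.7 and 13.2 CPM, though reads of Tubb2b may be shared with a near-identical copy. Tln2 rose 1.66-fold and its widely expressed paralog talin 1, Tln1, was 5.19-fold lower. Of 32 cytoskeleton and neurite genes 23 were higher and 5 lower. Stmn2 and Nefl, proteins of axons, rose 2.83-fold and 2.41-fold, and the motor genes Kif21b and Dync1h1 had log2 folds of -0.87 and -0.40, the latter not called without pair 2 (adjusted p = 0.0657). Map2 and Actb were not called (0.14 ± 0.11 and -0.06 ± 0.12, adjusted p = 0.296 and 0.697), and Map2 was called higher without pair 3 (adjusted p = 0.0385).

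Of 23 genes whose messages are carried into dendrites 15 were higher and 1 lower, against 33.5% and 35.1% of all genes. Nrgn and Itpka rose 2.64-fold and 2.68-fold. The 14-3-3 proteins, phosphopeptide-binding adaptors, rose in 6 of 7 cases with a median of 1.30. Ywhag was at 419.6, 442 and 339 CPM and 1001, 1090.3 and 1156 CPM, and Ywhah, Ywhab and Ywhaz rose 2.79-fold, 2.6-fold and 2.46-fold. Sfn, the epithelial form, was below 1 CPM in all 6 libraries and not called.

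Energy metabolism followed the neuronal genes. Of 15 glycolytic genes 14 were higher. Tpi1 and Eno2, the neuronal enolase, rose 2.35-fold and 2.15-fold, and Gapdh, often used as a reference, went from 188, 189 and 194 CPM to 332, 385 and 343 CPM. Aldoa was at 985, 923 and 940.4 CPM and 2544, 2029.9 and 1785 CPM, whereas the astrocyte aldolase Aldoc was the member lower in IP, at 421, 566 and 604 CPM and 88.8, 103 and 135 CPM. Of 74 respiratory chain genes 66 were higher and 0 lower, with a median of 0.56 and Ndufa10 and Atp5g1 up 1.84-fold and 1.89-fold. On library totals 43 were higher and 5 lower.

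Of 16 genes of the V-ATPase, the proton pump of vesicles and lysosomes, 15 were higher. The B2 subunit Atp6v1b2 went from 522, 495 and 492 CPM to 1556, 1263 and 1219 CPM, and Atp6v0e was the lower member (-1.72 ± 0.12). Lysosomal enzymes were divided, with 6 of 34 higher and 21 lower: Ids and Ctsb rose 1.69-fold and 1.54-fold, while Ctsd was not called (adjusted p = 0.185). Of 31 proteasome genes 30 were higher, up to 1.13 on the log2 scale for Psmd11, and on library totals 18 were. Psmb2 was the member not called (0.21 ± 0.10), except without pair 3 (adjusted p = 0.0114). In the cholesterol pathway 6 of 24 genes were higher and 4 lower, against 33.5% and 35.1% of all genes. The counts were 3 and 10 on library totals, against 2807 and 7449 of all 15507 genes. Those of the pathway were 6 and 8 with a minimum mean of 5 CPM and 6 and 1 without pair 2. Fdft1 was at 0.71 ± 0.09 and Sqle at -0.39 ± 0.10.

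Messages for the cytosolic ribosome were mostly lower, unlike most mitochondrial ribosomal protein and translation factor genes. Of 77 ribosomal protein genes tested 0 were higher and 56 lower, with a median log2 fold of -0.40. On library totals 73 were lower. Rps12 was at 183, 149 and 163 CPM in the inputs and 96.9, 76.2 and 83.9 CPM in the IPs (1.93-fold lower, adjusted p = 1.77e-08), and Rpl39 and Rpl13 were 2.08-fold and 1.58-fold lower. Rpl4 and Rps3 overlapped between fractions (-0.06 ± 0.10 and -0.16 ± 0.09, adjusted p = 0.619 and 0.141). Rps6, the protein phosphorylated downstream of mTOR, was called at -0.23 ± 0.10 but not without the pairing (adjusted p = 0.167), without pair 2 (0.114) or without pair 3 (0.169). Processed pseudogenes resemble many of these genes, so their counts are uncertain. Rpl22, the gene of the tagged protein, went from 142, 141 and 119.5 CPM to 99.9, 87.1 and 85.2 CPM, and its paralog Rpl22l1 was not called (0.19 ± 0.10) except without pair 3 (adjusted p = 0.0299).

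The first transcribed bases of 6 ribosomal protein genes are shown with a short pyrimidine motif, for which these genes were picked. Not all of the sequences begin with a pyrimidine, and a link between the motif and the falls was not tested. All 6 were called and have the motif CTTTC, in capitals, beginning in the first 10 bases of a start site listed by RefSeq (GRCm38.p6). Listed start sites can be off by some bases. Genes were taken by smallest adjusted p from part of the genome only. A qualifying gene elsewhere with a smaller adjusted p would not be shown.
Rps26 (chr10:128626477-128626506, minus strand): ggatcctCTTTCgagtcttggctccaagat
Rpl18 (chr7:45718071-45718100, plus strand): gctCTTTCcccgcccactccggcgcggttc
Rpl35 (chr2:39005102-39005131, minus strand): ctCTTTCtctcgaaccaggctgcttcagcc
Rps10 (chr17:27635215-27635244, minus strand): cttcCTTTCcagcctccgcctcggaccctg
Rpl13a (chr7:45128716-45128745, minus strand): gacctcctcCTTTCccaggcggctgccgaa
Rpl35a (chr16:33056482-33056511, plus strand): ctCTTTCcgccatcttggcgcctgtggagg
Their log2 folds were -0.77, -0.53, -0.54, -0.52, -0.44 and -0.41. Starts were listed for 58 of the 79 genes. CTTTC began in this window in 12 of 68 starts of ribosomal protein genes (17.6%) and in 501 of 32851 starts of all genes (1.53%), and its reverse complement GAAAG in 1.47% and 1.6%. Among starts of ribosomal protein genes called lower 8 of 48 held CTTTC (16.7%), and among those of genes not called 4 of 19 (21.1%).

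Most other messages of translation went differently. Of 77 mitochondrial ribosomal protein genes 59 were higher and 0 lower (median 0.43), Mrpl11 by 0.80 on the log2 scale, and on library totals 18 were higher and 7 lower. Of 43 translation factor genes 27 were higher and 3 lower. On library totals the counts were 9 and 10, against 2807 and 7449 of all 15507 genes. The 3 lower on the TMM scale were Eef1a1, Eef1d and Eef1b2. Eef1b2 was not called with DESeq2 (adjusted p = 0.0512) or without pair 2 (0.3). The elongation factor Eef1a2, the form of neurons and muscle, went from 352, 381 and 424 CPM to 748, 836 and 785 CPM, and the general form Eef1a1 from 2301, 1941 and 2101 CPM to 1799.8, 1368 and 1382 CPM. Eif1, which acts in start codon choice, rose 1.9-fold, and Eef2 was not called (-0.10 ± 0.11, adjusted p = 0.425).

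Of 53 genes of the mTOR pathway 25 were higher and 10 lower, against 33.5% and 35.1% of all genes. On library totals the counts were 10 and 19, against 2807 and 7449 of all 15507 genes. The Rag GTPases Rragc and Rraga, which bring the complex to lysosomes, rose 1.95-fold and 1.92-fold. The second S6 kinase gene Rps6kb2, the kinase Sgk1 and the lysosomal factor Tfeb had log2 folds of -1.96 ± 0.15, -0.89 ± 0.09 and -1.90 ± 0.25. Of 28 genes of the ATF4 response, which answers amino acid shortage, 8 were higher and 13 lower, against the same shares of all genes. Asns and the tRNA synthetase Gars rose 1.92-fold and 1.59-fold. The serine synthesis genes Phgdh and Psat1 were 5.62-fold and 2.87-fold lower, the cystine transporter Slc7a11 3.01-fold, and Atf4 itself overlapped between fractions (-0.05 ± 0.09, adjusted p = 0.652). Astrocytes express Phgdh, Psat1 and Slc7a11, and the part of the astrocyte RNA in these values was not tested.

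Activity-regulated genes had no common direction, with 13 of 28 higher and 8 lower, against 33.5% and 35.1% of all genes. On library totals 11 were higher and 11 lower, against 2807 and 7449 of all 15507 genes. Bdnf, a growth factor of excitatory neurons, went from 21.7, 16.1 and 17.3 CPM to 69.9, 42.7 and 45.4 CPM (2.83-fold). Arc and Jun were not called (0.19 ± 0.09 and -0.01 ± 0.10, adjusted p = 0.0653 and 0.949). Fos, Nr4a1 and Klf4 had log2 folds of -0.51, -0.84 and -1.99, and input and IP did not overlap for any of them.

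Small noncoding RNAs of the nucleus were strongly depleted. Of 41 small nucleolar and Cajal body RNA genes tested 39 were lower, with a median log2 fold of -2.88. These were the tested ones of 48. A gene near 0 in the IPs could pass the count filter through its inputs, so falls were favored in advance. With no filter 43 were lower and 0 higher. Snord15a, which guides methylation of ribosomal RNA, was at 66.8, 49.7 and 49.8 CPM in the inputs and 2.71, 2.32 and 3.66 CPM in the IPs, 18.4-fold lower (adjusted p = 4.92e-13). Snord15b was at 301, 256 and 308 CPM and 11.6, 15.9 and 39.2 CPM, with IP 3 the highest IP. Scarna6, Snora61, Snora7a and Snord22 were 11.2-fold, 9.88-fold, 9.71-fold and 8.76-fold lower. The same 12 lowest genes included Rprl3, an RNase P RNA copy, and Leng8, a protein-coding gene, at 8.95-fold and 8.25-fold. The other 4, the complement gene C4b, the collagens Col5a3 and Col9a3 and the endothelial antigen Ly6c1, were 8.92-fold, 9.27-fold, 8.68-fold and 8.66-fold lower.

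Of 21 further noncoding RNA genes 18 were lower and 2 higher. Malat1, a nuclear speckle RNA and the most abundant gene in each input, was at 17606, 20634 and 16807 CPM in the inputs and 2949, 4366 and 6475 CPM in the IPs (4.19-fold lower), and IP 3 kept more than IP 1. Meg3 was at 1262, 1541 and 1518 CPM and 149.9, 207 and 469 CPM, again with IP 3 highest, and Snhg11 was 5.21-fold lower. Neat1, the RNA core of paraspeckles, and Rian had log2 folds of -1.91 and -1.24. Rmrp and Rpph1, catalytic RNAs of RNA-processing enzymes, were 6.35-fold and 3.86-fold lower, with input 2 the lowest input for both. Gas5, a spliced host of small nucleolar RNAs, was 2.34-fold lower, and Peg13 was 1.7-fold higher. Histone genes were lower in 23 of 31 cases, with Hist1h1d and Hist1h3b at -1.68 and -2.83, and Hist1h4c was higher at 0.71. Many histone messages are made in dividing cells, whose marker levels are given above, and their part in these values was not tested.

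Meg3 and Rian lie in an imprinted interval on chromosome 12 that is transcribed into long noncoding RNAs with microRNA hairpins inside them. RefSeq places 60 microRNA genes between the start of Meg3 and the end of Mirg (chr12:109540996-109749458, GRCm38), of which 18 had enough counts to be tested. Hairpins near 0 in the IPs passed that filter through their inputs, so falls were favored in advance among those tested. All 18 were lower, with a median log2 fold of -3.16. The hairpins of the 4 with the highest mean CPM, chosen after their values were seen, are shown for the sequence that these counts fall on, with bases 2 to 8 (the seed) of both mature arms in capitals.
Mir134 (chr12:109734139-109734209, plus strand): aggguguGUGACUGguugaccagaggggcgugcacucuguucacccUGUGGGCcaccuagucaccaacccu
Mir382 (chr12:109733771-109733846, plus strand): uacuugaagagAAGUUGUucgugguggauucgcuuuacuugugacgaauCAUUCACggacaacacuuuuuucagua
Mir1188 (chr12:109611822-109611941, plus strand): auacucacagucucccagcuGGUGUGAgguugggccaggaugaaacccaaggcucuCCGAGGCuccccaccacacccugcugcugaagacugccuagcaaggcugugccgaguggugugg
Mir409 (chr12:109743158-109743236, plus strand): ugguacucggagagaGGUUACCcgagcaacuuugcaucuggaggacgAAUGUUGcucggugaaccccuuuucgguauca
The 8 arms have 8 different seeds. Mir134 was at 1.42, 1.43 and 0.98 CPM in the inputs and 0.082, 0.187 and 0.211 CPM in the IPs, and Mir382 at 1.42, 1.05 and 1.47 CPM and 0, 0.112 and 0.176 CPM. Mir1188 and Mir409 had log2 folds of -1.89 ± 0.51 and -4.72 ± 0.68. The levels are near 1 CPM, and reads at a hairpin can come from the surrounding long transcript, so they do not measure mature microRNA.

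The same ratio was set against the control and tumor conditions with a fit of all 18 libraries, in which 16333 genes were tested and 9 pairs formed the blocks. Both contrasts use the same AZD8055 libraries and are not independent. The ratio was higher in the treated mice than in controls for 3399 genes (20.8%) and lower for 4253 (26%). Against untreated tumors it was higher for 3516 (21.5%) and lower for 4576 (28%). Library set changes together with condition here, so the 2 cannot be told apart in these differences. Within controls and within tumors library set also changes with fraction, so their folds of IP over input cannot be told apart from library set.

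Excitatory and glial genes were separated far more in the treated mice. Slc17a7 had log2 folds in this fit of 1.34 ± 0.11 with AZD8055, 0.06 ± 0.11 in controls and 0.17 ± 0.11 in tumors, a difference of 1.28 ± 0.15 from controls (adjusted p = 6.17e-07) and 1.17 ± 0.15 from tumors (adjusted p = 1.95e-06). Slc1a3 had log2 folds of -2.65 ± 0.10, -0.07 ± 0.09 and -0.22 ± 0.09 in the same order, with differences of -2.58 ± 0.13 and -2.43 ± 0.13. Pdgfra had -2.46 ± 0.11, -0.10 ± 0.10 and -0.21 ± 0.10, with differences of -2.36 ± 0.14 and -2.24 ± 0.14.

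In control libraries 20% of all genes were called higher in IP and 18.9% lower, and in tumor libraries 15.4% and 15.6%. The astrocyte median was -2.25 with AZD8055, -0.02 in controls and -0.08 in tumors, and 2 and 6 of 24 members were called lower in the latter conditions. The endothelial and pericyte medians were -2.51, -0.54 and -0.44, and 21 of 26 members were called lower in controls and 21 in tumors. The inhibitory neuron medians were -1.52, -0.22 and -0.16, and the excitatory medians 1.32, 0.29 and 0.35. For astrocyte genes the difference was called lower in 24 of 24 members against each condition.

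Camk2a, on whose promoter the method rests, had log2 folds of 1.37 ± 0.15, 0.71 ± 0.15 and 0.88 ± 0.15. Its difference was 0.66 ± 0.21 from control (adjusted p = 0.0129) and 0.49 ± 0.21 from tumor (adjusted p = 0.0592), and both calls turned on the setting. The first was lost without control pair 2 (adjusted p = 0.0796), with DESeq2 (0.0675), on library totals (0.0507) and without the pair blocks (0.287), and the second was gained without tumor pair 1 (0.018), among others. Nedd9 differed from control by 0.96 ± 0.22 (adjusted p = 0.00147, or 0.248 without the pair blocks) and from tumor by 0.25 ± 0.21 (adjusted p = 0.346).

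Small nucleolar and Cajal body RNAs were lower in the IP than in the input libraries in all 3 conditions. Their medians were -2.95, -2.62 and -2.04, and of 44 members 37 and 32 were called lower in controls and tumors. The difference between AZD8055 and control was called higher for 2 and lower for 3 of them, against 20.8% and 26% of all genes, and that between AZD8055 and tumor higher for 2 and lower for 6, against 21.5% and 28%. Of 23 further noncoding RNA genes 17 and 14 were called lower in controls and tumors, and the ratio with AZD8055 was lower in 7 and 11 and higher in 1 and 1. Malat1 had log2 folds of -2.11 ± 0.18, -1.19 ± 0.18 and -0.49 ± 0.17, with differences of -0.93 ± 0.25 from control (adjusted p = 0.00416) and -1.62 ± 0.25 from tumor (adjusted p = 1.67e-05). Without the pair blocks the first of these was not called (adjusted p = 0.0853). Snord15a was lower in the IP libraries in each condition, with log2 folds of -4.25 ± 0.23, -4.98 ± 0.31 and -5.65 ± 0.31. Its difference was 0.73 ± 0.45 from control (adjusted p = 0.195, or 0.00641 without control pair 3) and 1.40 ± 0.46 from tumor (adjusted p = 0.0161). The latter was not called with DESeq2 (0.16), without tumor pair 2 (0.0625), without tumor pair 3 (0.0609) or without AZD8055 pair 3 (0.064).

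Ribosomal protein genes were also lower in IP in every condition, with medians of -0.44, -0.21 and -0.16. Of 77 members 7 had a higher and 15 a lower ratio with AZD8055 than in controls, where 20.8% and 26% of all genes did, and 3 and 22 than in tumors, where 21.5% and 28% of all genes did. Rps12 differed by -0.32 ± 0.12 from controls (adjusted p = 0.0369), a call lost when any control or AZD8055 pair was left out (adjusted p from 0.0515 to 0.27), and by -0.62 ± 0.12 from tumors (adjusted p = 0.000192). Rpl22 differed by -0.58 ± 0.11 and -0.64 ± 0.11 (adjusted p = 0.000252 and 6.48e-05). The Rps12 difference from controls was also not called with DESeq2 (0.0763) or RLE scaling (0.0657). Without the pair blocks neither gene was called against controls or tumors (0.385 and 0.0708 for Rps12, 0.0807 and 0.0526 for Rpl22).

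Bcar1 was higher in the IP libraries in each condition, with log2 folds of 2.63 ± 0.16, 1.01 ± 0.16 and 1.73 ± 0.16. Its ratio with AZD8055 exceeded that in controls by 1.62 ± 0.22 (adjusted p = 4.68e-06) and that in tumors by 0.91 ± 0.22 (adjusted p = 0.00183), the latter not called without the pair blocks (adjusted p = 0.0585).

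**Figure D5:**
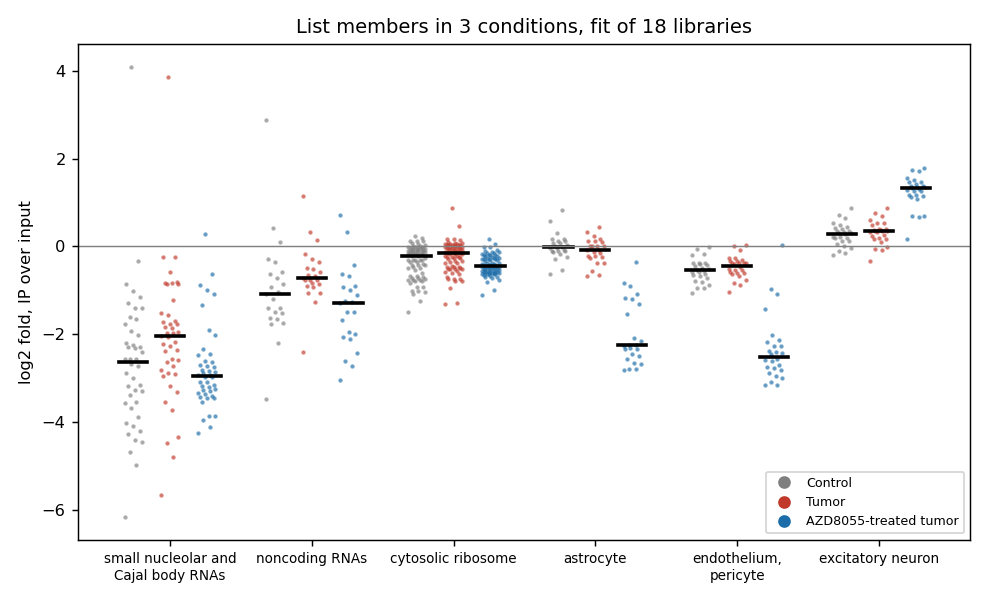
Log2 fold of IP over input for the members of 6 gene lists in controls (grey), tumors (red) and AZD8055-treated tumors (blue), from the fit of 18 libraries; bars mark medians. Astrocyte medians are -0.02, -0.08 and -2.25, whereas small nucleolar RNA medians are -2.62, -2.04 and -2.95.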

How the data were processed

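Total RNA and tagged-ribosome RNA were sequenced from 6 groups of 3 libraries, prepared with a directional kit per the labels' protocols. The deposited values are raw counts per gene. STAR, DESeq2 and mm10 are named in the submitters' processing notes; versions and the strand setting used in counting are unknown here. Antisense and overlapping genes therefore cannot be told apart. Of 23420 symbols 23260 (99.3%) matched RefSeq.

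Counts were filtered with filterByExpr, TMM-scaled and tested with edgeR 4.0.16 (limma 3.58.1, R 4.3.3), quasi-likelihood, with Benjamini-Hochberg adjustment over all genes tested. The replicate number was the block, as the comparison is paired (2 residual degrees of freedom for 6 libraries, 6 for 18). The quasi-likelihood test draws each gene's spread toward that of other genes, and the small adjusted p-values rest on that. Deviations from group means correlated between same-numbered AZD8055 libraries at 0.64, 0.45 and 0.26 over 10328 genes, although input 3 correlated more with IP 2 (0.30). The correlations were 0.31 to 0.36 in controls and 0.65 to 0.89 in tumors.

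Levels come from the scaling of the 6 libraries. Differences between conditions, and the plots that name 18 libraries, come from the fit of all 18. The procedure was tested on simulated counts in which a small set of genes changed, up and down alike, and the rest did not. Broad and uneven changes such as those seen here were not covered by that test. Alternatives were an unpaired fit, DESeq2 1.42.0, RLE scaling, library totals, other filters, all 18 libraries and leaving out each pair.

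Members and lists were chosen with earlier results of these data known. Genes could be named if among the 12 highest or lowest folds (mean of at least 10 CPM, no overlap), up to 4 per direction of smallest adjusted p in a list, up to 2 uncalled members of highest level, any member of a list of up to 20 genes, the 4 highest and lowest differences, or genes fixed beforehand. The text gives part of these, picked with their values known, and some are not reported here. The 6 ribosomal protein genes and 4 microRNAs shown by sequence were chosen after their values were seen.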

Additional observations from a re-analysis of the deposited data

Results flagged for a closer look

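The IP-over-input ratio differed between the AZD8055 and the other conditions by the test of the difference itself, in edgeR's fit of 18 libraries. Library set and condition cannot be told apart in any of these values. The counts were 3399 genes higher and 4253 lower against control, and 3516 higher and 4576 lower against tumor.

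Among genes higher in the IP the log2 difference from control was 1.28 for Slc17a7, 0.66 for Camk2a, 1.62 for Bcar1 and 0.96 for Nedd9. The difference from tumor was 1.17 for Slc17a7 and 0.91 for Bcar1. For the glial gene Slc1a3 it was -2.58 from control and -2.43 from tumor, and for Pdgfra -2.36 and -2.24. Malat1 differed by -0.93 and -1.62, Rps12 by -0.32 and -0.62, and Rpl22 by -0.58 and -0.64. Snord15a differed from tumor by 1.40.

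The genes with the most extreme differences were those in which the control and tumor inputs stood apart from the other 12 libraries. Cdr1 differed by -12.65 from control and -13.03 from tumor. It was at 73.6 to 80.7 CPM in AZD8055 inputs and 20.4 to 47.5 CPM in AZD8055 IPs, but at 0 to 0.0638 CPM in control inputs and 0 to 0.0414 CPM in tumor inputs. Ccdc73 differed by -11.19 from control and was at 0 in all 6 control and tumor inputs, against 11.2 to 17 CPM elsewhere. BC049635 differed by -8.67 and -8.15, Hipk4 by -8.54 and -6.15, and Klhl34 by -7.27 from tumor. A fitted fold against a group at or near 0 depends on the prior count and is no bound.

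In the other direction Rell2 differed by 3.01 and 2.93, Apex1 by 2.69 and 2.72, Lypd1 by 2.39 and 2.47, and Thyn1 by 2.22 and 2.35. Apex1 was at 31.8 to 38.4 CPM in control inputs and 37.6 to 59.4 CPM in tumor inputs, against 6.63 to 13.4 CPM in the other 12 libraries. Within the treated mice Thyn1 was called higher in IP in the paired fit but not in 8 alternatives, with adjusted p from 0.0505 to 0.8.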

How the results depend on the processing

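Of the 10629 genes called in the AZD8055 comparison, 9214 were called in the same direction without the replicate block (4362 higher, 4883 lower), 9628 with DESeq2 and 8244 on library totals, where 2807 were higher and 7449 lower, 27.4% of calls being higher against 48.8%. With a minimum mean of 5 CPM, which leaves 11742 genes, 19 calls turned round. Leaving out each pair gave 8700 to 10314 calls (4064 to 5004 higher, 4636 to 5310 lower). The ratio difference from control held 4953 genes without the replicate block (1867 higher) and 2165 higher on library totals. That from tumor held 5296 (1969 higher) and 1901 higher. Leaving out each pair gave 6502 to 7735 and 6860 to 8249. On library totals 3 named genes reversed: Kcnc2 (-0.017), Cux1 (-0.25) and Bsn (-0.28). The uncalled Foxp2, Penk, Enpp2, Pcna, Rpl4, Rps3, Eef2, Atf4, Jun, Actb and Ctsd were called lower there, and Sqle was not called without the block (adjusted p = 0.0517). The list medians for layer 6, GABA-B and chloride transport, the mTOR pathway, cholesterol synthesis, actomyosin and transcription factors changed sign on library totals (-0.14, -0.16, -0.09, -0.30, -0.26 and -0.16). The cause was not tested. Counts near 1 CPM, as for microRNA hairpins, limit precision.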

Other observations

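Groups of neuromodulation were mixed. Of 25 neuropeptide and trophic factor genes 14 were higher in IP and 7 lower, with a median log2 fold of 0.90, against 33.5% and 35.1% of all genes. Of 27 receptors for amines and acetylcholine 15 were higher and 4 lower (median 0.50). Among 40 transcription factors of neurons and glia 19 were higher and 16 lower, and 16 and 19 on library totals. Of 34 actomyosin and spectrin genes 13 were higher and 13 lower, near the shares of all genes. Both erythrocyte genes tested were lower.

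By annotated class, 69 of 72 small nucleolar RNA genes and 44 of 47 microRNA genes were lower and 0 of either were higher. These 47 were the tested ones of 646 microRNA genes, and a gene near 0 in the IPs passed the count filter through its inputs. Of 679 long noncoding RNA genes 71 were higher and 304 lower, against 33.5% and 35.1% of all genes. Of 14550 protein-coding genes 5094 were higher and 4948 lower.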
